A study of Mus musculus with 6 samples.

Results

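Rhox5, Rhox6 and Rhox9 are 3 homeobox genes of the reproductive homeobox (Rhox) cluster on the mouse X chromosome. They were picked out of 17016 named genes because their array signals differed between cell lines, so their own levels and differences are given as a description, with no test. Each had 1 probe and 1 spot per array, matched through its RefSeq accession: A_51_P376445 (NM_008818) for Rhox5, A_51_P487048 (NM_008955) for Rhox6 and A_51_P346132 (NM_023894) for Rhox9. Total RNA came from 3 pluripotent mouse lines of strain 129, all kept in Knockout DMEM with 20% KSR, a serum replacement. The lines were embryonic stem cells (mES, stage E3.5), epiblast stem cells labelled E3.5 (E3.5 EpiSC) and epiblast stem cells labelled E5.5 (E5.5 EpiSC). Each line was measured untreated and after 4 days of SB431542, an inhibitor of the Activin, Nodal and TGF-beta type I receptors, added daily at 20 µM. That gives 6 groups with 1 one-colour Agilent array each. No group had a second array, and mES cells are represented by 1 line and EpiSCs by 2. The labels give neither the sex of the lines nor the use of feeder cells.

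Rhox genes encode homeodomain transcription factors and are known mainly from testis, epididymis, ovary and placenta. Rhox5, first named Pem, is expressed in embryonic stem cells and extraembryonic tissue, and is regulated by androgen in Sertoli cells of the testis. Rhox6 (Psx1) and Rhox9 (Psx2, or Gpbox) are close relatives of each other, known from placenta and germ cells. The cluster is a textbook target of DNA methylation, which keeps it silent in cells of the embryo proper after implantation.

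Promoter sequence is shown for the measured Rhox genes that were much lower in EpiSCs than in mES cells and have an entry in the RefSeq promoter table (GRCm38.p6): Rhox5, and Rhox2a, described further on. Rhox6 and Rhox9 are not in that table. The letters are the 250 bases before the annotated start, 5′ to 3′ on the gene's strand, with each CpG, the dinucleotide that DNA methylation acts on, in capitals. The windows are chrX:37754358-37754607 (plus strand) for Rhox5 and chrX:37244742-37244991 (plus strand) for Rhox2a.
Rhox5: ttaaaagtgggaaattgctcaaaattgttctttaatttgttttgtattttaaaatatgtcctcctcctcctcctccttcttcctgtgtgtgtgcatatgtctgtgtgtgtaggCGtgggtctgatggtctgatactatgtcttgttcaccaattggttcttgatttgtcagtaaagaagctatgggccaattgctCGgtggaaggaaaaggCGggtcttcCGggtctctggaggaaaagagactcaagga
Rhox2a: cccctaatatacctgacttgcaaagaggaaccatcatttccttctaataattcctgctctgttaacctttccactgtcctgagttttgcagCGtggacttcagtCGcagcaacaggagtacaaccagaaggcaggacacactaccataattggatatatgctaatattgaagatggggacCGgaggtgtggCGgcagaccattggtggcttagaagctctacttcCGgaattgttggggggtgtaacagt
Rhox5 held 4 CpG and Rhox2a held 5, against a median of 6 over 32851 promoter windows of that length. As few or fewer CpG than in Rhox5 were found in 44.4% of all windows, and as few or fewer than in Rhox2a in 49.6%. Neither window was therefore CpG-rich. The 28 Rhox promoters of the table held from 0 to 10 CpG. A search on both strands found CCAAT 3 times in the Rhox5 window, in which 2 matches overlap on opposite strands as CCAATTGG, and 2 times in the Rhox2a window. CCAAT was present in 33.8% of all windows. GGGCGG (32.7% of all windows), TCCCGC (16.9%), CACGTG (6.02%) and ATGCAAAT (1.6%) did not occur in either window. These are letters in a window, and the arrays measured neither methylation nor binding.

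Levels are the log2 of the background-subtracted spot intensity minus the array's 75th percentile, so 0 is the brightness of that percentile, and levels are not compared between genes. The 75th percentile lay between 1194 and 1803 intensity units, 80.8% to 83.9% of spots were well above background, and no gene spot was saturated. The number of arrays limits the precision: with 1 array per group, the scanner program's error for a spot is the only error of a single level, and it covers neither culture nor labelling. Naive pluripotency markers summed to 127.2 times the 75th percentile in mES cells against 11.8 and 13.6 in the EpiSC lines, and primed epiblast markers to 12.1 against 36.5 and 48.5. The core markers Pou5f1, Nanog and Sox2 summed to between 64.3 and 76.6 in the 3 untreated lines. After SB431542 the core sum was 57.4 in mES cells but 6.87 and 7.05 in the EpiSC lines, whose 6 neural progenitor markers summed to 119.7 and 111.6, up from 7.53 and 4.36. Their primed epiblast sum was 3.14 and 5.59, with all 4 primed and all 3 core markers still well above background; Sox2 was at 2.77 and 2.79. In bulk RNA, fewer cells of a type and less RNA per cell cannot be told apart.

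Rhox5 was bright in mES cells and dim in both EpiSC lines, and was lower still in the treated EpiSCs. Its intensity was 181730 ± 18173 (scanner error) in untreated mES cells and 199700 ± 19970 in treated mES cells. In the E3.5 EpiSC line it was 771.5 ± 77.2 untreated and 152.9 ± 15.7 with SB431542. In the E5.5 EpiSC line it was 543 ± 54.4 untreated and 169.5 ± 17.3 with SB431542. Both mES arrays were far above all 4 EpiSC arrays, and within the EpiSC lines each treated array was below both untreated ones. On the log2 scale the levels were 7.03 and 7.28 in mES cells without and with the inhibitor, -0.63 and -3.56 in the E3.5 line, and -1.18 and -3.11 in the E5.5 line. The range over the 6 arrays was 10.84 log2 units. The spot on the treated mES array carried a flag for its local background, not for the spot itself.

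Rhox6 was also highest in mES cells, but there the inhibitor-treated array was the higher one. Its intensity was 1097 ± 109.8 in untreated mES cells and 2652 ± 265 with SB431542. It was 28.6 ± 4.86 in untreated E3.5 EpiSCs and 145.8 ± 15.3 in treated ones. In the E5.5 line it was 21.7 ± 4.81 untreated and 26 ± 5.16 treated. Both mES arrays lay above the 4 EpiSC arrays, and among the EpiSC arrays the treated E3.5 line stood above the other three. The log2 levels were -0.34 and 1.05 in mES cells, -5.38 and -3.63 in the E3.5 line, and -5.82 and -5.81 in the E5.5 line. The spot was well above background on 6 of 6 arrays, but its scanner error reached 22.1% of the signal in untreated E5.5 EpiSCs.

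Rhox9 followed the order of Rhox6 for the top 3 arrays. Its intensity was 2194 ± 219 in untreated and 4975 ± 497 in treated mES cells. It was 104.8 ± 10.9 and 327.8 ± 33 in untreated and treated E3.5 EpiSCs. The E5.5 EpiSC values were 112.9 ± 11.7 and 130.4 ± 13.4. Treated mES cells were highest, untreated mES cells next and treated E3.5 EpiSCs after them, while the remaining 3 EpiSC arrays lay together. The log2 levels were 0.66 and 1.96 in mES cells, -3.51 and -2.46 in the E3.5 line, and -3.44 and -3.49 in the E5.5 line.

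**Figure D1:**
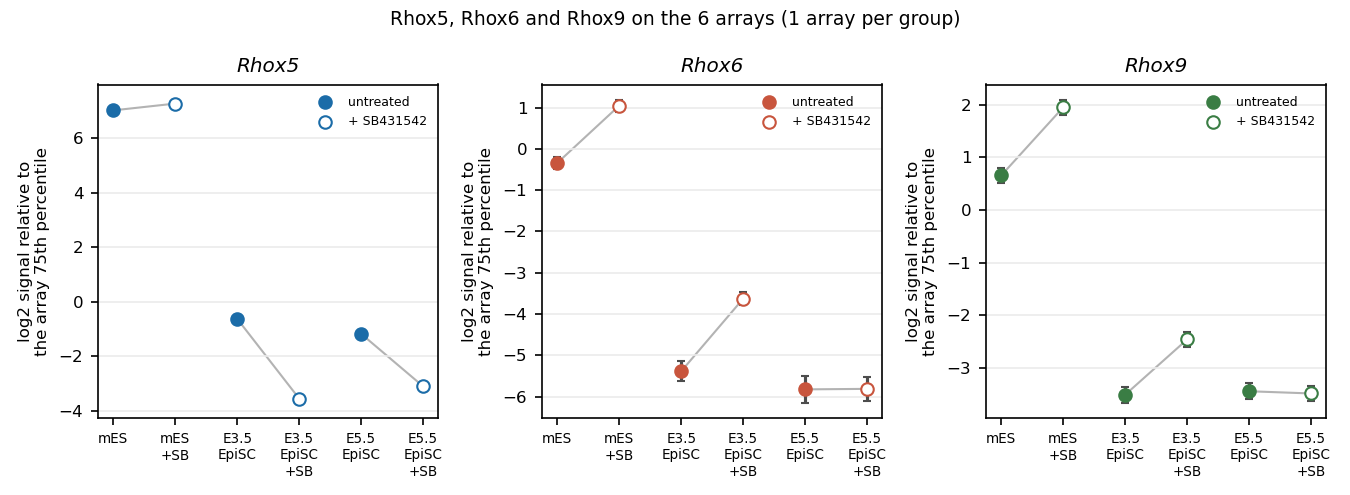
Level of Rhox5, Rhox6 and Rhox9 on each of the 6 arrays, as log2 signal relative to the array's 75th percentile, with filled points for untreated and open points for SB431542-treated cells, joined within a line. Bars are the scanner error of the spot; mES arrays are the top 2 for each gene, and Rhox5 falls with the inhibitor in both EpiSC lines while Rhox6 and Rhox9 are higher with it in mES cells and the E3.5 line.

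Some neighbours in these orders were closer than 2 scanner errors of their difference. For Rhox5 only the mES arrays were, 0.25 log2 apart with an error of 0.20. For Rhox6 the untreated E3.5 array and both E5.5 arrays were, with gaps of 0.43 and 0.01. For Rhox9 the same 3 arrays were, with gaps of 0.04 and 0.02. All other steps in the 3 orders exceeded 2 scanner errors. Over the 6 arrays the levels of Rhox6 and Rhox9 had a Pearson correlation of 0.993, against 0.895 for Rhox5 with Rhox6 and 0.924 for Rhox5 with Rhox9. The points share the array, the line and the treatment, so this only describes the similar shapes in the plot of levels. Probe sequences were not used here, so signal shared between the Rhox6 and Rhox9 probes through similar sequence cannot be told apart.

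The first question was how the EpiSC lines compared with mES cells without the inhibitor. Rhox5 was 202.6-fold lower in E3.5 EpiSCs than in mES cells (log2 difference -7.66, scanner error 0.20) and 296.4-fold lower in E5.5 EpiSCs (-8.21, 0.20). Rhox6 was 33-fold lower in the E3.5 line (-5.05, 0.28) and 44.8-fold lower in the E5.5 line (-5.48, 0.35). Rhox9 was 18-fold lower in the E3.5 line (-4.17, 0.21) and 17.2-fold lower in the E5.5 line (-4.11, 0.21). All 3 genes were thus more than 2-fold lower in both EpiSC lines. Of all genes whose brighter array was well above background, 12.6% were at least 2-fold lower in the E3.5 pair and 10.7% in the E5.5 pair. The 3 genes were chosen on these values, so nothing is read from that. Averaged over both EpiSC lines, the differences from mES cells were -7.94 ± 0.39 (SD, n = 2 lines) for Rhox5, -5.26 ± 0.31 for Rhox6 and -4.14 ± 0.05 for Rhox9. The E5.5 pair shared a slide, and the E3.5 pair spanned different slides, so line and slide cannot be told apart in these differences.

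**Figure D2:**
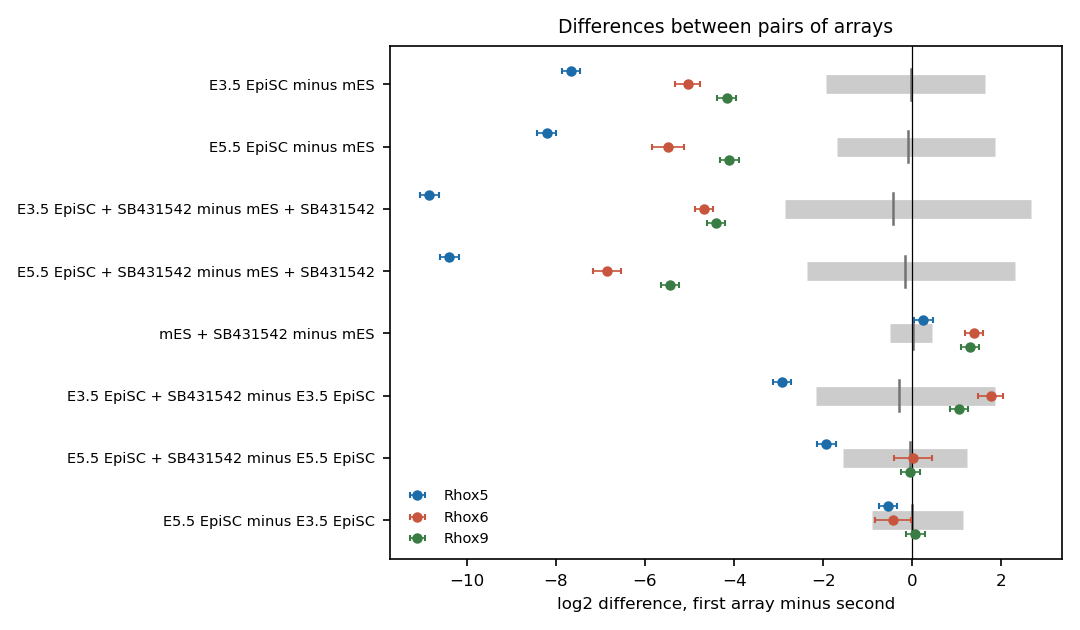
Log2 difference between 8 pairs of arrays for Rhox5, Rhox6 and Rhox9, with bars of 1 scanner error of the difference. Grey bands run from the 5th to the 95th percentile of all genes whose brighter array was well above background, with the median as a tick; the EpiSC differences from mES cells lie left of the band for all 3 genes, and the Rhox6 and Rhox9 points for the inhibitor in mES cells lie right of it.

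The EpiSC lines differed little from each other for these genes. From the E3.5 to the E5.5 line the difference was -0.55 (scanner error 0.20) for Rhox5, -0.44 (0.40) for Rhox6 and 0.07 (0.21) for Rhox9. None reached 2-fold, as against 10.0% of all genes. Their sizes came from single arrays and had no replicate check. With normexp, a model-based background correction, the Rhox6 difference changed sign to 0.72.

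The second question was what SB431542 did within each line, and the answer differed between the genes. In mES cells Rhox6 was 2.62-fold higher with the inhibitor (log2 difference 1.39, scanner error 0.20) and Rhox9 was 2.45-fold higher (1.29, 0.20). Rhox5 differed by 0.25 (0.20), below 2-fold. In this pair 1.45% of genes were at least 2-fold higher and 1.16% at least 2-fold lower. The genes were chosen on their levels across arrays that include these, so nothing is read from that. Both mES arrays were on the same slide, but there is no second pair to set the spread of such differences. Across the background corrections and scalings tried, the mES difference stayed between 1.27 and 1.39 for Rhox6 and between 1.21 and 1.29 for Rhox9.

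In the E3.5 EpiSC line Rhox6 was 3.38-fold higher with the inhibitor (1.76, scanner error 0.29) and Rhox9 was 2.07-fold higher (1.05, 0.21), while Rhox5 was 7.62-fold lower (-2.93, 0.21). In that pair 11.8% of genes were at least 2-fold higher and 20.1% at least 2-fold lower, and the median of all tested genes was itself at -0.31. Its arrays were on different slides. The rises in this pair depended on the background correction: with normexp they were 0.50 for Rhox6 and 0.68 for Rhox9, both under 2-fold. In the E5.5 EpiSC line, whose arrays shared a slide, Rhox6 differed by 0.01 (scanner error 0.43) and Rhox9 by -0.04 (0.21). Rhox5 was 3.81-fold lower there (-1.93, 0.21), in a pair with 9.08% of genes at least 2-fold lower and 6.68% at least 2-fold higher. With normexp the E5.5 difference of Rhox6 was -0.99. The median of all tested genes moved under normexp too, to -0.28 in this pair and to 0.23 in E5.5 EpiSCs against mES cells.

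Averaged over both EpiSC lines, the change with SB431542 was -2.43 ± 0.71 (SD, n = 2 lines) for Rhox5, 0.88 ± 1.23 for Rhox6 and 0.50 ± 0.77 for Rhox9. Only for Rhox5 was the change larger than the spread between the lines, and it was lower in 2 of 2 lines. Of the 228 genes at least 2-fold higher with the inhibitor in mES cells, 73 were also at least 2-fold higher in the E3.5 line. They made up 32% of the mES genes and 3.95% of the 1846 genes of the E3.5 line. Of all genes, 11.8% were at least 2-fold higher in the E3.5 pair and 1.45% in the mES pair. Rhox6 and Rhox9 are among the 73 by their own values above. The overlap with the E5.5 line, where these 2 genes were not higher, was not counted.

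Markers of other cell types moved in the same pairs. In mES cells, 4 of 12 markers of primitive and visceral endoderm were at least 2-fold higher with SB431542, namely Sox7, Amn, Cubn and Dab2. Of all genes, 1.45% were that much higher in this pair. Cubn, an endocytic receptor of visceral endoderm, went from a level of -1.13 to 0.44, and Dab2, its adaptor, from -2.60 to -0.69. The summed level of the list went from 2.90 to 5.22 times the 75th percentile, while Ttr was not well above background on any array. In the E3.5 EpiSC line the sum went from 4.14 to 4.97, with Cubn alone at least 2-fold higher, and in the E5.5 line from 13.4 to 4.50, as Foxa2 went from a level of 3.37 to -0.76. Cubn and Dab2 were at least 2-fold higher in the E5.5 line too. Of the 12 trophoblast markers only Hand1 was at least 2-fold higher in treated mES cells, and their sum went from 8.27 to 11.6. In the EpiSC lines the trophoblast sum went from 3.48 to 1.38 and from 3.22 to 1.02 with the inhibitor, and Cdx2, Elf5 and Gcm1 were not well above background on either treated array. Gata3 was at least 2-fold higher with it in both EpiSC lines, Esx1 in the E5.5 line and Hand1 in the E3.5 line. Esx1 was not well above background in untreated E3.5 EpiSCs, and its treated level of -6.38 there was too low to show a 2-fold rise. At least 2-fold lower were 6 of the 12 in the E3.5 line and 4 in the E5.5 line, with Cdx2, Eomes and Tfap2c in both. Of all genes, 11.8% and 6.68% were at least 2-fold higher in these pairs, and 20.1% and 9.08% lower. Markers of Sertoli and epididymal cells, where Rhox5 is best known, summed to between 0.937 and 1.69 on the 6 arrays. Primordial germ cell markers summed to 41.9 and 44.8 in mES cells, 19.08 and 6.35 in the E3.5 line and 47.3 and 28.8 in the E5.5 line, untreated and treated. Ifitm3, at 5.53 in untreated E5.5 EpiSCs, made up most of the last pair of sums. Of the 8 markers, 6 were at least 2-fold lower in untreated E5.5 EpiSCs than in mES cells (median -1.52), against 10.7% of all genes. The 12 fibroblast markers, which feeder cells would also express, ran from 47.1 in untreated mES cells to 119.7 in treated E5.5 EpiSCs. With SB431542, 6 of them were at least 2-fold higher in the E3.5 line and Tagln was lower, though the sum went from 75.7 to 68.1. Of all genes, 11.8% were that much higher there. In the E5.5 line 5 were lower, against 9.08% of all genes, and Tagln was higher, at sums of 119.5 and 119.7. Untreated E5.5 EpiSCs had 9 of them at least 2-fold higher than mES cells and Fn1 lower, where 1896 of 15897 genes were higher. Untreated E3.5 EpiSCs had only Tagln higher, and Col3a1, Lum and Fn1 lower, where 1741 of 15930 genes were higher and 2008 lower. The part of any of these cells in the Rhox results was not tested.

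With the inhibitor present in both cell types, the differences between EpiSCs and mES cells were larger for Rhox5. It was 1835-fold lower in treated E3.5 EpiSCs than in treated mES cells (log2 difference -10.84, scanner error 0.21) and 1342-fold lower in treated E5.5 EpiSCs (-10.39, 0.21). Rhox6 was 25.6-fold lower (-4.68, 0.21) and 116-fold lower (-6.86, 0.32). Rhox9 was 21.3-fold lower (-4.41, 0.20) and 43.5-fold lower (-5.44, 0.21). All 3 were again lower in both lines, where 28.9% and 16.6% of all genes were at least 2-fold lower. For Rhox6 and Rhox9 the difference was the smaller one in the E3.5 line, whose treated array was higher for both. These comparisons use the treated arrays that also enter the comparisons within a line, so the values are not independent of those.

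The other members of the cluster gave values that did not choose the genes above. Of 39 further Rhox genes in the RefSeq table, 4 had a probe, and all 4 were well above background on 6 of 6 arrays. limma was fitted to all 16157 genes tested, taking the 2 EpiSC lines as replicates of each other, with Benjamini-Hochberg adjustment. The single mES array of each treatment gave no spread of its own. Untreated EpiSCs differed from mES cells at 242 genes (63 higher, 179 lower), so 1.5% of genes passed and 1.11% passed as lower. Rhox2a fell by 5.81 ± 0.36 (SE; log2, adjusted p = 0.015 by limma), from a level of 0.34 in mES cells to -5.49 and -5.45 in the EpiSC lines. Rhox3a, at 0.11 in mES cells and 0.09 and 0.20 in the EpiSC lines, differed by 0.03 ± 0.90 (adjusted p = 0.99 by limma). Rhox4e was at 1.25 in mES cells and at 0.38 and -0.09 in the EpiSC lines, a difference of -1.10 ± 0.40 that did not pass (adjusted p = 0.28 by limma). Rhox11 stayed between -5.75 and -6.39 on all arrays and differed by -0.13 ± 0.39 (adjusted p = 0.92 by limma). It was dim in mES cells too, at 25.6 intensity units. The dimmest level well above background was -6.96 and -7.10 on the untreated E3.5 and E5.5 EpiSC arrays. A fall as large as that of Rhox2a could therefore not have been measured for Rhox11. So 1 of these 4 genes fell and none rose, with a median difference of -0.62 against -0.06 over all genes tested. At an unadjusted p under 0.05 in limma there were 2 of the 4. Rhox2, Rhox3 and Rhox4 exist in several near-identical copies, so which copies a probe of that name reports is uncertain.

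All calls of this comparison rest on the 2 residual degrees of freedom that the pairs of EpiSC arrays give. Without the treated E3.5 EpiSC array, or without the treated E5.5 EpiSC array, 0 of 16157 genes passed in limma (3296 at an unadjusted p under 0.05 in either case), Rhox2a included, although its difference was the same. Without the untreated E3.5 or E5.5 EpiSC array 215 and 221 genes passed, with the remaining EpiSC array assumed to vary like the treated pair.

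**Figure D3:**
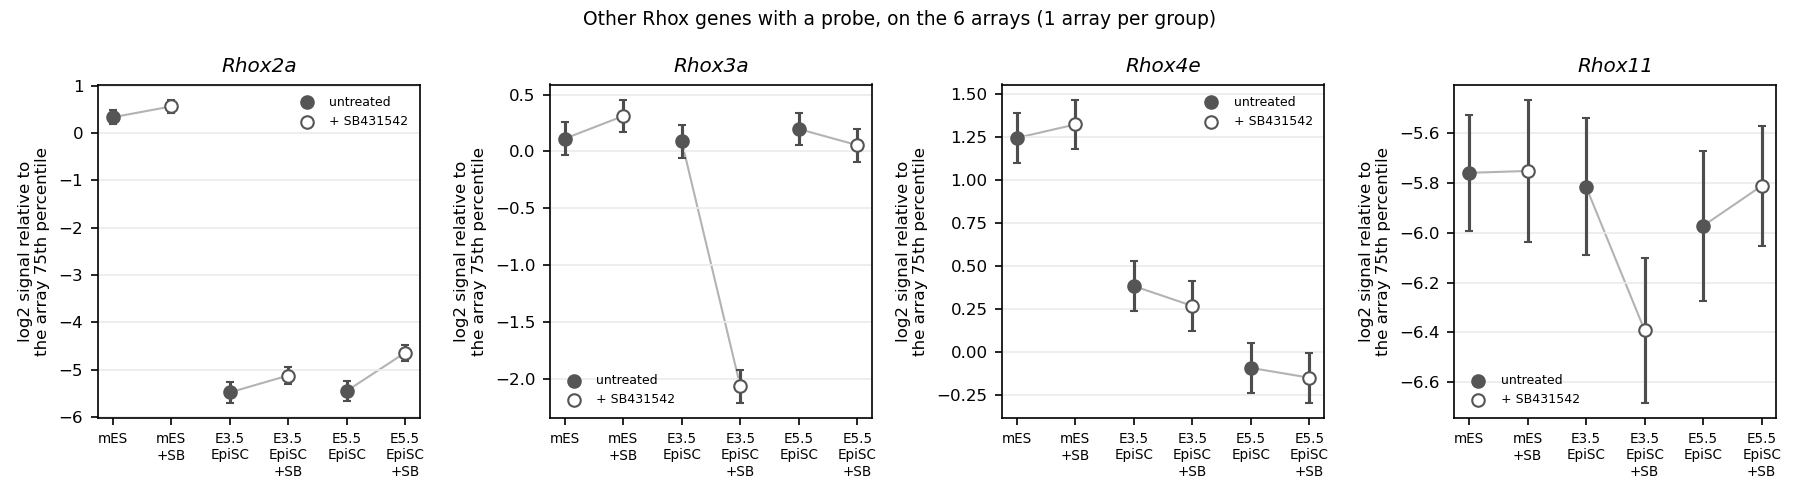
Level of the 4 other Rhox genes with a probe on each of the 6 arrays, as log2 signal relative to the array's 75th percentile; filled points are untreated, open points SB431542-treated, and bars are the scanner error of the spot. The axes differ between genes: Rhox2a is more than 5 log2 units higher on the 2 mES arrays, and Rhox3a is low on the treated E3.5 EpiSC array alone.

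With SB431542, EpiSCs differed from their untreated state at 338 genes (144 higher, 194 lower; 2.09% of genes, 1.2% lower), and at 903 genes (5.59%) with the cell line as a block. No other Rhox gene passed in either fit (0 of 4, also at an unadjusted p under 0.05 without the block, in limma). Rhox2a differed by 0.58 ± 0.30 (adjusted p = 0.34 by limma), and its levels were -5.13 and -4.64 in the treated E3.5 and E5.5 lines. Rhox3a was at -2.07 in treated E3.5 EpiSCs, 2.15 log2 below the untreated array, but at 0.05 in treated E5.5 EpiSCs. Neither treated EpiSC array was thus below its untreated one for Rhox2a, as both were for Rhox5; the difference between these genes was not tested. Without the treated E3.5 or the treated E5.5 EpiSC array, 0 genes passed (2439 and 5034 at an unadjusted p under 0.05 in limma), and 197 passed without the untreated E3.5 array. Between treated EpiSCs and treated mES cells, where 10.7% of genes passed and 5.31% passed as lower, Rhox2a fell by 5.45 ± 0.36 (adjusted p = 0.0076 by limma). The other three did not pass. Without the treated E3.5 EpiSC array, 342 of the genes tested passed there in place of 1722.

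In chromosome order, Rhox3a lay between Rhox2a and Rhox5 and differed little from mES cells in the untreated E3.5 and E5.5 lines (-0.02 and 0.08). Gm9, a predicted gene next to the cluster, fell by 3.502 ± 0.413 in untreated EpiSCs (adjusted p = 0.043 by limma), from 1.002 in mES cells to -2.34 and -2.66. The next measured genes were Rhox2a, which fell, Rhox3a, and Rhox4e, which was lower in both lines (-0.86 and -1.34) without passing. Since the copies that these probes report are uncertain, whether the low genes form 1 block was not tested. Rhox5, Rhox6 and Rhox9 followed, and then Rhox11, which was too dim in mES cells to show a large fall. Zbtb33, which encodes a methyl-CpG binding protein, and Tmem255a lie within the span of the cluster and did not pass (0.91 ± 0.40 and -0.47 ± 0.52). Beyond it, Lamp2, Cul4b, Mcts1, C1galt1c1 and 6030498E09Rik did not pass either. On the near side, Nkap, Akap14, Ndufa1 and Rnf113a1 did not pass. With the inhibitor in both cell types, Gm9 fell by 4.35 ± 0.41 (adjusted p = 0.011 by limma) and Akap14 was called higher, for which only a bound of at least 1.51-fold holds, since it was well above background on only 2 arrays.

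Germ cells and placenta are the setting in which Rhox genes are best known, and some of the other X-linked genes of these tissues were lower in EpiSCs. Of 35 such genes outside the cluster, 25 were measured and 24 tested; 10 fell in untreated EpiSCs, none rose and 14 did not pass, against 1.11% of all genes called lower. Among the 14, Zxdb was at least 2-fold higher in both EpiSC lines (1.78 and 1.59). The median was -3.64, or -3.41 with genes not above background in EpiSCs held at their bound, against -0.06 over all genes. Xlr3c, Xlr4b and Xlr5a, members of a lymphocyte-regulated gene family expressed in germ cells, fell, with differences of -5.22, -5.30 and -6.68. Xlr, of the same family, went the other way without passing (0.90 ± 0.59), at 1.42 and 0.38 above mES cells in the E3.5 and E5.5 lines. For 6 of the 10 the EpiSC spots were not well above background, so only a bound holds: the mES level was at least 1062-fold higher for Fmr1nb (adjusted p = 0.012 by limma). It was at least 88.5-fold higher for Taf7l, a testis paralogue of a general transcription factor subunit, and at least 25.7-fold for Tex11, a meiosis protein. A bound is the mES level over the dimmest signal well above background on the EpiSC arrays, or the spot's own value where higher. Fthl17e, Plac1, Mageb1, Magea3 and Magea5 were among those that did not pass, at 0.35, 0.14, 0.17, -0.25 and -0.69. Under normexp 5 of the 24 genes were called lower.

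With the inhibitor alone, no gene of that list passed in EpiSCs (0 of 24 in limma, 2 at an unadjusted p under 0.05; median -0.29 against -0.19 over all genes), and with the line as a block Trap1a, a tumour rejection antigen gene, fell. Its level was 2.74 and 1.35 in the untreated E3.5 and E5.5 lines and -3.76 in the treated E5.5 line, and it was not well above background in the treated E3.5 line. Rhox5 and Trap1a were thus both lower in treated than in untreated EpiSCs. Between treated EpiSCs and treated mES cells, 17 of the 24 fell and Zxdb rose (2.41 ± 0.32), with a median of -4.99. Without the treated E3.5 EpiSC array 10 fell.

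Of 17 autosomal germline genes tested, 11 fell in untreated EpiSCs and none rose, against 1.11% of all genes called lower. The median was -5.30, against -0.06 over all genes. They included Dazl, an RNA-binding protein of germ cells (-5.01 ± 0.54), Mael, a piRNA pathway factor (-7.35 ± 0.57), and Stra8, the retinoic acid target that starts meiosis (-9.57 ± 0.46). Under normexp 8 were called lower. With SB431542 in EpiSCs 1 of the 17 passed in limma (4 at an unadjusted p under 0.05), against 2.09% of all genes: Tex19.1 fell by 4.59, and it had also fallen from mES cells to untreated EpiSCs. Of 17 tested homeobox genes of early embryo, germ cells or placenta outside the cluster, 0 passed in limma between untreated EpiSCs and mES cells (5 at an unadjusted p under 0.05), with a median of 0.11. Among them Esx1, a placental X-linked homeobox gene, was at -1.41 in mES cells, at least 49-fold above the mean of the untreated EpiSC lines, where it was not well above background (adjusted p = 0.056 by limma). With the inhibitor in EpiSCs 0 of the 17 passed in limma (7 at an unadjusted p under 0.05); with the line as a block, where 5.59% of all genes passed, Gsc, Otx2, Mixl1 and Cdx2 fell. The lists were chosen with earlier results of these data known, so their counts are a description.

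**Figure D4:**
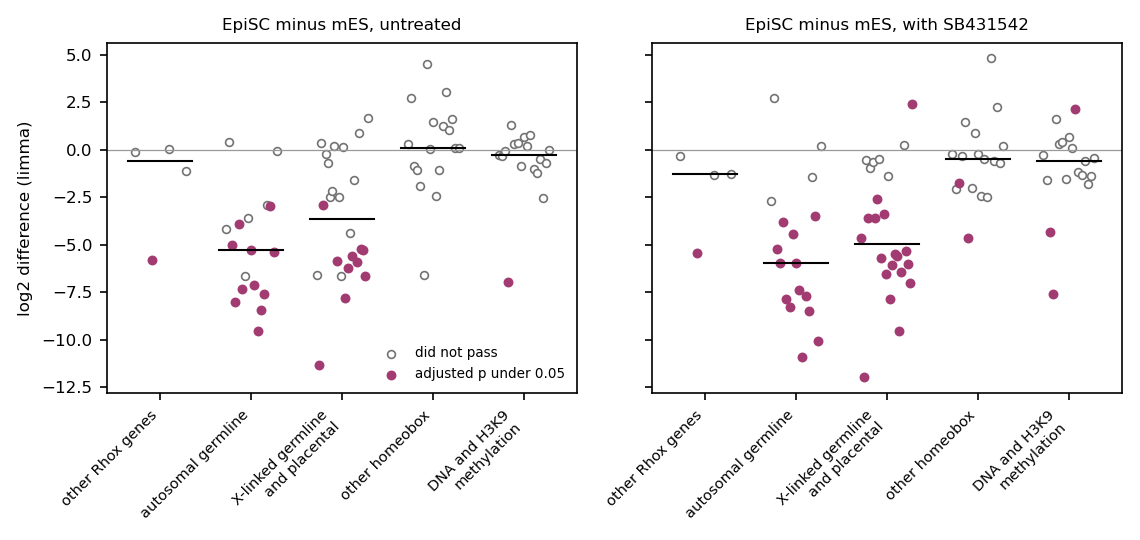
Log2 difference of EpiSCs from mES cells in the limma fit for each tested gene of 5 lists, untreated (left) and with SB431542 in both cell types (right). Filled points had an adjusted p under 0.05 and lines are medians; the germline lists have medians of -5.30 and -3.64 on the left, while the other homeobox genes have a median of 0.11.

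The enzymes and readers of DNA and H3K9 methylation, which act on the Rhox cluster in embryos, mostly did not pass between the untreated cell types. Over 17 measured genes the median was -0.30, against -0.06 over all genes. Of the 17, 1 fell and none rose, against 1.11% of all genes called lower. The one was Dnmt3l, the catalytically inactive partner of the de novo methyltransferases, which fell by 6.99 ± 0.49 (adjusted p = 0.019 by limma), from 4.76 to -2.52 and -1.93. Dnmt3b, a de novo methyltransferase, was at 4.55, 4.41 and 4.58 in the 3 untreated lines and differed by -0.06 ± 0.36. Dnmt1 and Uhrf1, which maintain methylation, differed by -0.30 ± 0.38 and -0.04 ± 0.37. Tet2, an enzyme that oxidises methylcytosine, was lower by 2.57 ± 0.41 without passing (adjusted p = 0.072 by limma). E2f6, Mga and Pcgf6, subunits of a repressor complex of germline genes, did not pass (1.29, -1.03 and -1.25). At an unadjusted p under 0.05 in limma there were 5 of the 17. Dnmt3l, Tet2, Pcgf6 and Mga were at least 2-fold lower in both EpiSC lines, and E2f6 was at least 2-fold higher in both. Of all genes, 12.6% and 10.7% were at least 2-fold lower in the E3.5 and E5.5 lines. With SB431542 in EpiSCs only Dnmt3b passed: it fell by 4.18 ± 0.30 (adjusted p = 0.023 by limma), to 0.08 and 0.53, while staying at 4.62 in treated mES cells. In the same treated arrays Rhox5 was lower than untreated, Rhox9 was higher in the E3.5 line, and Rhox2a did not pass. Dnmt3b and Dnmt3l fell between treated EpiSCs and treated mES cells, with log2 differences of -4.32 and -7.61.

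The genes lie on the X chromosome, so X-linked RNA markers are given beside them. Xist, the RNA of the inactive X chromosome, was well above background in E5.5 EpiSCs (0.15 untreated, 1.37 treated) and in treated mES cells (-5.49), but not in untreated mES cells or E3.5 EpiSCs. The lines thus differed in Xist, while Rhox5, Rhox6 and Rhox9 were low in both EpiSC lines. Of 5 tested genes of X inactivation and X dosage, among them Rlim, the ubiquitin ligase that activates Xist, 0 passed in any of the 3 limma comparisons (2 to 3 at an unadjusted p under 0.05). The part of X dosage in the Rhox levels was not tested.

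The genes with the most similar pattern were found among 4328 named genes outside the Rhox family that were well above background on at least 2 arrays and spanned at least 2 log2 units. For Rhox5 they were Aldh3b1, an aldehyde dehydrogenase (Pearson correlation 0.9996 over 6 arrays), Rinl (0.9995), Zswim1 (0.9989), Cox7b2 (0.9988) and Nr5a2, an orphan nuclear receptor (0.9985). Nr5a2 was at 2.65 and 2.59 in mES cells, -2.97 and -5.10 in the E3.5 line, and -3.10 and -5.06 in the E5.5 line, untreated and treated. Like Rhox5 it was lower on each treated EpiSC array. For Rhox6 and Rhox9 the same pair led: Scgb3a1, a secretoglobin (0.9969 and 0.9965), and Gldc, the glycine decarboxylase (0.9903 and 0.9952). Rhox6 was followed by Gsta3, a glutathione S-transferase (0.9888), Cnnm2 (0.9858) and Zfp825 (0.9851), and Rhox9 by Slc51a, a steroid transporter subunit (0.995), Slc25a35 (0.9917) and Wdr20rt (0.9908). Scgb3a1 was at -1.84 and -1.33 in mES cells, -4.52 and -3.76 in the E3.5 line, and -4.54 and -4.66 in the E5.5 line. It too was higher with SB431542 in mES cells and the E3.5 line only, although by less than 2-fold. A high correlation was not rare: 463 of the 4328 genes exceeded 0.95 with Rhox5, 75 with Rhox6 and 146 with Rhox9. The 6 points fall into a high mES and a low EpiSC cluster, so these values describe the pattern and carry no test.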

How the data were processed

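Total RNA from 6 samples was hybridised to one-colour Agilent arrays with Cy3, per the labels. The authors deposited linear spot intensity, already corrected for background and spatial trend, with an error per spot; per the file headers the program was Feature Extraction 10.7.1.1. The submitters' processing notes name version 9.1, and which made the values is unsettled. The deposited value table held equal intensity at 45018 of 45018 values per array (within 0.1%).

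Control and outlier spots were left out, spots of a probe averaged, and log2 intensity minus the 75th percentile of each array taken from the deposited values. The files name no genes, so unversioned accessions were matched to the RefSeq table: 24375 of 41174 probes, 17016 genes (brightest probe on average where several), of which 16157 passed the filter of 1 array or more well above background. limma 3.58.1 in R 4.3.3 fitted 4 arms to 6 arrays with Benjamini-Hochberg adjustment and a threshold of 0.05, and was tested on simulated data. Single pairs were described by a 2-fold rule, without a test. Nothing says that arrays of the EpiSC class come from separate cultures beyond their 2 lines, so p-values measure the spread between the 2 EpiSC lines. Each mES arm is 1 array and adds no spread, so p-values against mES cells hold none between mES lines. The same 2 lines give the untreated and the treated pair, so the 2 residual degrees of freedom are not independent. The single-pair differences and their averages over lines matched treated and untreated arrays by cell line, as the labels give it. The limma fit of 4 arms did not use this pairing, and only the fit with the line as a block did. Named genes were the 3 genes, every other measured Rhox gene, the 5 genes most correlated with each, and members of the lists. The genes and lists were chosen with earlier results of these data known. Alternatives covered background correction, scaling, filters, probe averaging, left-out arrays and the line as a block. normexp used the median spot signal.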

Additional observations from a re-analysis of the deposited data

Results flagged for a closer look

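The change of Rhox5 with SB431542 had opposite signs in the cell types: 0.25 in mES cells, -2.93 in E3.5 EpiSCs and -1.93 in E5.5 EpiSCs, on the log2 scale. The mES value was close to its scanner error of 0.20. This difference between the cell types was not tested, and each value comes from 1 pair of arrays.

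The change of Rhox9 with SB431542 had opposite signs in the EpiSC lines, 1.05 in the E3.5 line and -0.04 in the E5.5 line (scanner errors 0.21 and 0.21). The second value was within its scanner error of 0, and under normexp the values were 0.68 and -0.49. This difference between the lines was not tested either.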

How the results depend on the processing

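Of the 24 differences of Rhox5, Rhox6 and Rhox9 between pairs of arrays, 18 reached 2-fold. Over 5 alternatives each, 99 of 120 values stayed within the scanner error of the reported one, 21 moved further, and 0 of those that reached 2-fold changed sign. Under normexp, Rhox6 in E3.5 and E5.5 EpiSCs against mES cells moved from -5.05 and -5.48 to -3.18 and -2.46. Of the other named genes, Magea1 (at the background in EpiSCs) reversed to 0.25 between untreated EpiSCs and mES cells under normexp. The count of genes called with SB431542 in EpiSCs moved from 338 to 540 among genes above background on all 6 arrays, and to 903 with the line as a replicate block (paired by cell line), which moved no other count because it could not be fitted to the comparisons between cell types. With 1 array left out, counts ranged from 0 to 242 for untreated EpiSCs against mES cells, from 0 to 338 for SB431542 in EpiSCs, and from 342 to 1722 for treated EpiSCs against treated mES cells; leaving out an EpiSC array leaves 1 residual degree of freedom. The 2-fold counts moved under normexp from 3749 to 2482 for E3.5 EpiSCs against mES cells and from 410 to 181 for SB431542 in mES cells. A 4-fold rule gave 1311 genes for E3.5 and 1289 for E5.5 EpiSCs against mES cells and 372 between the EpiSC lines. It gave 83 with SB431542 in mES cells, 1615 in E3.5 and 879 in E5.5 EpiSCs, and 2710 and 1999 for treated E3.5 and E5.5 EpiSCs against treated mES cells. The split of genes higher and lower moved under normexp from 63 and 179 to 70 and 114 for untreated EpiSCs against mES cells. It moved from 1896 and 1698 to 2050 and 933 for E5.5 EpiSCs against mES cells, from 965 and 603 to 1095 and 160 between the EpiSC lines, and from 1045 and 1419 to 596 and 2018 with SB431542 in E5.5 EpiSCs. Apart from the 4-fold rule, where the cause is the stricter threshold, the cause was not tested. Slide as a random block could not be fitted, since 2 of the 3 slides hold 1 array. Rhox6 in EpiSCs is limited by its signal over background.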
